A study of Mus musculus with 2 samples.

Results

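Lipid-associated macrophages are macrophages that take up, store and export lipid, and 10 genes commonly used to recognise them were followed here through the Cd45+ cells of a mouse melanoma: Trem2, Apoe, Gpnmb, Spp1, Lpl, Lgals3, Fabp5, Cd36, Abca1 and Lipa. They were chosen by gene symbol from what is known of this cell state, with earlier results of these data known, and they are 10 of the 31253 genes listed. All of them had unique molecular identifiers (UMIs, tags that count captured RNA molecules once) in both libraries.

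B16-F10, a melanoma line of C57BL/6 mice, was injected under the skin at 200000 cells per mouse, and tumors were taken on day 10. Cd45+ cells, which are the leukocytes of the tumor, were sorted and captured with BD Rhapsody, a microwell platform that reads the 3′ ends of transcripts. The mice were Irg1+/+ or Irg1-/-, the latter lacking Irg1 (Acod1, the enzyme that makes itaconate) in every cell from the germline on, and both were young adult females, by the study's methods, on a C57BL/6J background. Each genotype has 1 library, a pool of 100 mm3 tumor fragments from 3 mice, so that animals, tumor size and preparation cannot be told apart from genotype. The labels give 6000 sorted cells per sample, whereas the files hold 6408 barcodes for Irg1+/+ and 5896 for Irg1-/-, of which 6284 and 5794 had under 10% of UMIs from mitochondrial genes and were kept. Total UMIs in kept cells were 42105693 and 35307041, with medians of 4528 and 4594.5 per cell, and 36 barcodes occurred in both libraries.

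Lipids reach macrophages in lipoproteins and in the membranes of dead cells. Cd36 and the products of Lpl, a lipase that frees fatty acids from triglyceride, bring them in, Lipa hydrolyses cholesteryl ester and triglyceride in the lysosome, and Fabp5 carries fatty acids in the cytosol. Cholesterol leaves through the transporter Abca1, whose transcription is raised by the sterol-sensing liver X receptors, and is loaded onto the carrier protein Apoe. Trem2 is the surface receptor that senses lipid and signals through the adaptor Tyrobp. Gpnmb, Spp1 (osteopontin) and Lgals3 (galectin 3) are glycoprotein, cytokine and lectin products found with this program in adipose tissue, atheroma, injured liver and tumors.

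All 10 are protein-coding genes with 1 entry each in the files, and in GENCODE M21 (GRCm38) they lie at these places: Trem2 at chr17:48346401-48354147 and Gpnmb at chr6:49036546-49070929, both on the plus strand; Spp1 at chr5:104435118-104441050, Lpl at chr8:68880491-68907448, Lgals3 at chr14:47367751-47386160 and Fabp5 at chr3:10012548-10016607, also on the plus strand. Apoe at chr7:19696109-19699188, Cd36 at chr5:17781690-17888801, Abca1 at chr4:53030787-53159895 and Lipa at chr19:34492318-34527474 are on the minus strand. Fabp5 has a near-identical copy, Fabp5l2, and Spp1 overlaps Gm42793 on the same strand. How reads shared with either were assigned is unknown, and the Fabp5 counts are uncertain to that extent.

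The 4 members whose levels were highest in one macrophage state in both libraries, the hypoxic Vegfa state described below, are Gpnmb, Spp1, Lgals3 and Abca1. Spp1 had its highest level in another state in 1 library when cycling cells were left out, when the limits of the states were stricter or when cells with melanocyte marker UMIs were left out, and Abca1 when cells with lymphocyte marker UMIs were. Gpnmb and Lgals3 kept theirs in these settings. Their promoters are printed to show what this group has in sequence. Each runs from 250 bases before to 50 bases after a transcription start of RefSeq (GRCm38.p6), 5′ to 3′ on the gene's strand, and capitals mark matches on either strand to any of 6 motifs that are named after the sequences. The Gpnmb window is chr6:49036268-49036567 (plus strand), that of Spp1 chr5:104434861-104435160 (plus), that of Lgals3 chr14:47373610-47373909 (plus, a start inside the gene model given above) and that of Abca1 chr4:53159846-53160145 (minus).
Gpnmb: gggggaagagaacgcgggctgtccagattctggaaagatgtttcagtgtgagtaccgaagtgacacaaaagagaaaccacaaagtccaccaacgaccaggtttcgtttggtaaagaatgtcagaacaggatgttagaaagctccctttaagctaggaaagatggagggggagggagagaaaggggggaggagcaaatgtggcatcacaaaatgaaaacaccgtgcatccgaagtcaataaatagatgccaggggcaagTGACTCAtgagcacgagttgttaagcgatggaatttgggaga
Spp1: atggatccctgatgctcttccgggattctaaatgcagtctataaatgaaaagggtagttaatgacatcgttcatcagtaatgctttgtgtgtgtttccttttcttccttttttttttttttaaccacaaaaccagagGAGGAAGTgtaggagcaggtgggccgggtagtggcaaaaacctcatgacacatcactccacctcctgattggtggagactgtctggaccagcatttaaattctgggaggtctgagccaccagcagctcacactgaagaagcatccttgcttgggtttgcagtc
Lgals3: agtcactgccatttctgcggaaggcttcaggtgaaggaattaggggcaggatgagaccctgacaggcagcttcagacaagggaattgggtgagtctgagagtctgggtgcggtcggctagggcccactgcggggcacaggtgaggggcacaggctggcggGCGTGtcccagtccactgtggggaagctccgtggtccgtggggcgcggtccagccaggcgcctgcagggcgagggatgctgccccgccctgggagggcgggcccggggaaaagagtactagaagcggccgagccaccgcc
Abca1: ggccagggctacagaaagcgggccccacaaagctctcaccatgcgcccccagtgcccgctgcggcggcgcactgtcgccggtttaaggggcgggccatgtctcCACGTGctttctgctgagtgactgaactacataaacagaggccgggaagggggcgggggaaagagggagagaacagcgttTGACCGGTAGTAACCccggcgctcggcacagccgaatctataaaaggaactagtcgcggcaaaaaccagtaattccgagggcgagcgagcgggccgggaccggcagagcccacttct
Of 27025 promoters of this length, 19.7% hold ACGTG and 32.5% hold GCGTG, which are cores bound by hypoxia-inducible factors. The E-box CACGTG, bound by the lysosomal MiT/TFE factors among others, is in 7.24%, the AP-1 site TGACTCA in 5.17% and GAGGAAGT, a form of the PU.1 site, in 3.28%. The known liver X receptor element of Abca1, here searched as TGACCNNNNNTAACC, is in 10 promoters (0.037%). Gpnmb held the AP-1 site, Spp1 the PU.1 form and Lgals3 the second of the hypoxia cores. Abca1 held the E-box, with the first hypoxia core inside it on both strands, and the liver X receptor element. No motif was found in all 4. The table held windows for 8 of the 10 members, and among the other 4 of these only Trem2 had a match, to GCGTG. The motifs were chosen partly with these windows in view, and a match is a description of letters only.

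Cells were sorted into gates by markers that include none of the 10 genes. Beside T, NK and B cells, granulocytes, plasmacytoid dendritic cells and melanocytes, the myeloid gates were classical monocytes (308 cells in Irg1+/+ and 423 in Irg1-/-), nonclassical monocytes (175 and 174), 6 macrophage states (1088 and 888 in all) and conventional dendritic cells (631 and 548, made of cDC1, cDC2 and mature cells). The macrophage states are the Vegfa gate (markers including the hypoxia genes Vegfa, Hilpda, Ndrg1, Ero1l and Egln3, 364 and 199 cells), the gate on C1q and MHC class II genes (204 and 246), the Mrc1 gate (137 and 105), the Lyve1 gate (81 and 142), the Ccl24 gate (227 and 107) and the Retnla gate (75 and 89). A further 152 and 91 cells whose leading state was cycling, 620 and 630 monocytes or macrophages without a state, and 1253 and 1185 cells without a class were kept out of these groups. The macrophage states still hold cells with cell cycle transcripts: leaving out every cell with 2 or more UMIs of Mki67, Top2a, Birc5 and Ube2c, which is meant below by cycling cells left out, takes the macrophages from 1088 and 888 to 797 and 705. Gates are ranges of a score, and 25.7% and 27.9% of the cells given a state lay near a limit.

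The names of some gates held less well than others. In the gate on C1q and MHC class II genes all 7 of its markers were raised, but its 10 leading genes held none of them in Irg1+/+ and included Clec9a, a cDC1 marker, and in Irg1-/- they included the matrix genes Bgn, Col1a1 and Sparc, so that it is called by its rule. In the Lyve1 gate, Lyve1 itself was at 20.5 CPM (UMIs per 1000000 of the gate's total; 18 UMIs) in Irg1+/+ and 189 CPM (210 UMIs) in Irg1-/-, and Timd4 at 34.2 and 133 CPM, so that the gate holds different cells in the libraries. The Retnla gate of Irg1-/- was led by Car4 and Mucl1. Mrc1 itself was higher in the Lyve1 gate (1760 and 1131 CPM) than in the Mrc1 gate (1519 and 1047 CPM), so that the latter too is called by its rule. A doublet caller marked 0 cells, which does not show that doublets are absent, and doublets were kept.

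The deleted gene was checked first. Acod1 stood at 138 CPM (1352 UMIs) in the macrophages of the Irg1+/+ library and 147 CPM (1114 UMIs) in those labelled Irg1-/-, and at 161 and 128 CPM in classical monocytes, against 23.0 and 24.1 CPM in lymphocytes. It was thus not lower in the macrophages labelled as knockout. A 3′ count may lie outside the deleted part, in which case it checks nothing, and every direction between the libraries given below rests on the labels alone. With 1 library per genotype no test is possible, and intervals (exact Poisson for CPM, Clopper-Pearson for shares, 95%) cover counting error only. Values are given for Irg1+/+ first and for the library labelled Irg1-/- second.

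Free RNA from lysed cells enters every well, so T, NK and B cells, which are not known for this program, were used to read the background. Trem2 was at 32.6 and 25.2 CPM in them, Apoe at 193 and 250, Gpnmb at 94.9 and 37.6, Spp1 at 157 and 93.7, Lpl at 126 and 81.5, Lgals3 at 759 and 654, Fabp5 at 108 and 83.6, Cd36 at 73.9 and 47.4, Abca1 at 27.0 and 29.5, and Lipa at 96.2 and 78.5. Every member exceeded these levels in the macrophages, from 4.37 and 4.49 times for Lipa to 13.9 and 11.2 times for Lpl. Conventional dendritic cells lay near or below the lymphocytes for Trem2, Apoe, Spp1, Lpl and Abca1, with 0.917 and 1.11 times the lymphocyte level for Trem2 and 0.590 and 0.697 for Abca1. Levels of these genes in dendritic cells, and that of Gpnmb in the monocytes labelled Irg1-/- (0.934 times), are read as background.

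**Figure D1:**
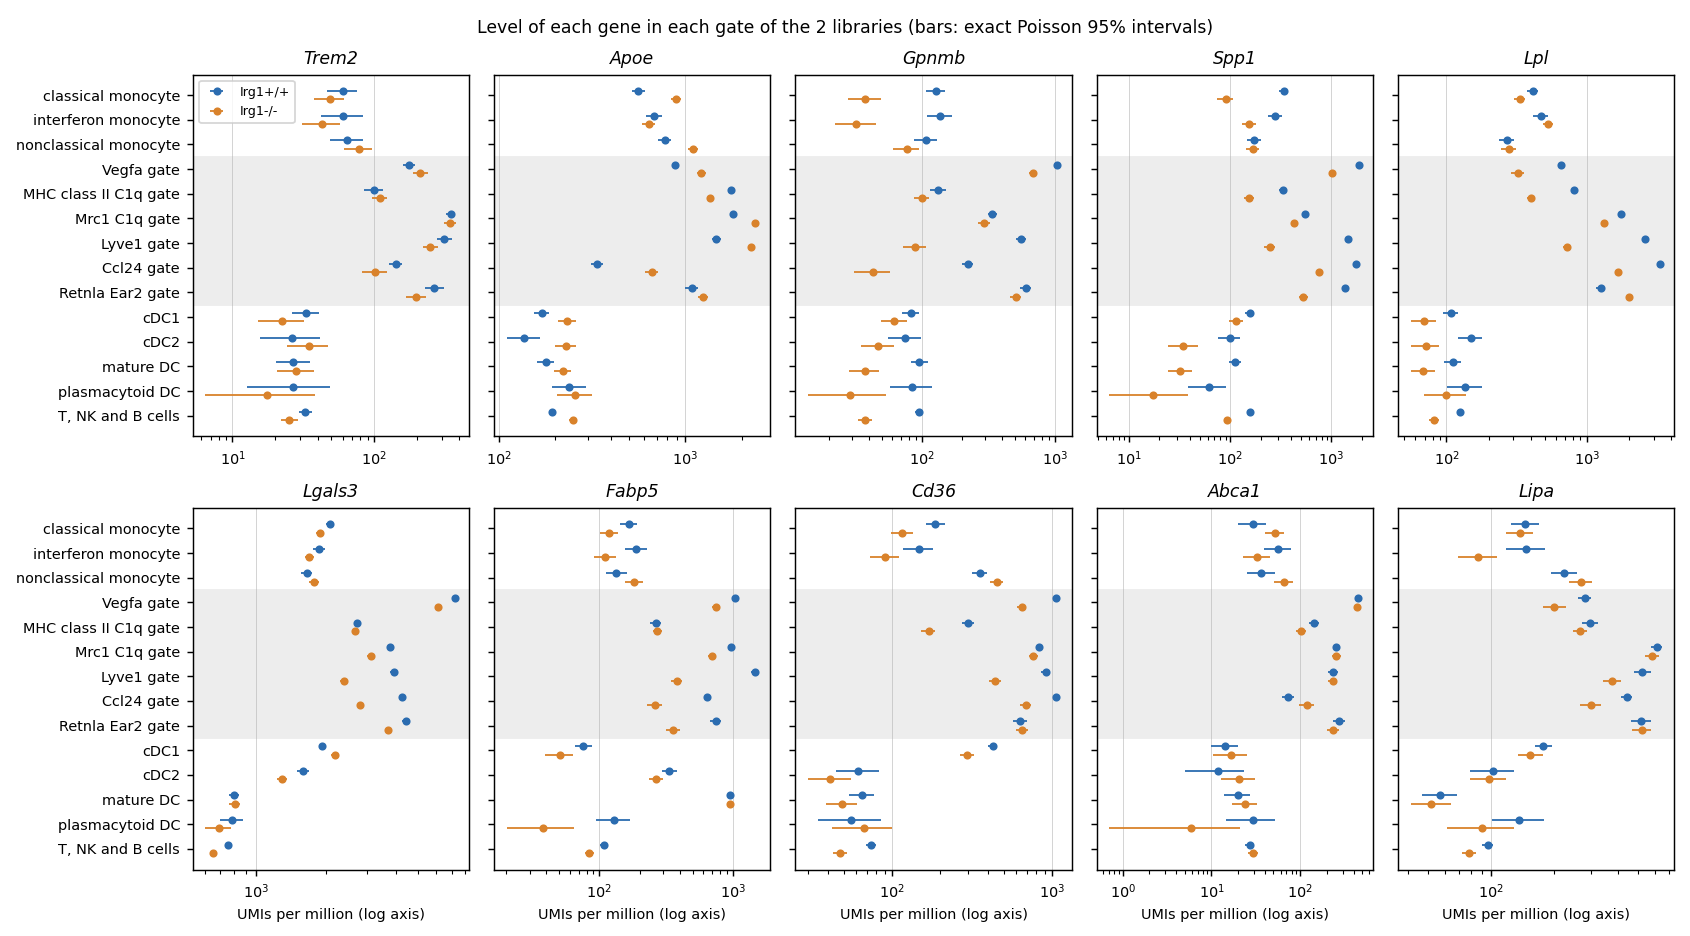
Level of each of the 10 genes in CPM (log axis) in the gates of both libraries, with exact 95% Poisson intervals (blue, Irg1+/+; orange, Irg1-/-). Macrophage gates lie above classical monocytes for most genes, and Fabp5 is high in mature dendritic cells, at 958 and 953 CPM.

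The receptor Trem2 was a macrophage transcript. Its level was 207 CPM (95% interval 198–216, 2021 UMIs) and 193 CPM (183–203, 1466 UMIs) in the macrophages, 60.1 (49.1–72.8) and 46.0 (37.8–55.4) CPM in classical monocytes, and 64.3 and 77.9 CPM in nonclassical monocytes. Macrophages thus stood 3.42 and 4.18 times over classical monocytes, with no overlap of the intervals. After each cell was thinned to 2000 UMIs, so that depth does not set the shares, 26.1% and 26.8% of macrophages had a Trem2 UMI, against 13.6% and 10.6% of monocytes and 7.14% and 4.78% of lymphocytes.

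Among the genes of uptake and transport, Cd36, Lpl and Fabp5 were several times higher in macrophages than in classical monocytes in both libraries. Cd36, the fatty acid and oxidised lipoprotein receptor, was at 854 (836–872) and 498 (482–514) CPM in macrophages and at 173 and 105 CPM in classical monocytes, a ratio of 4.93 and 4.75. Lpl was at 1745 (1719–1771) and 913 (891–934) CPM against 432 and 418 CPM, a ratio of 4.03 and 2.18. The level of Lpl in monocytes was similar in the libraries, within overlapping intervals, and the smaller ratio in Irg1-/- came with the lower macrophage level. Fabp5 was at 819 (801–837) and 439 (424–454) CPM in macrophages against 173 and 115 CPM in classical monocytes, 4.71 and 3.81 times higher.

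Fabp5 and Cd36 were also high in subsets of the dendritic cells. Fabp5 was at 958 CPM in the mature dendritic cells of Irg1+/+ and 953 in those of Irg1-/-, but at 334 and 264 CPM in cDC2 and 75.7 and 50.3 CPM in cDC1, the last below the lymphocytes. Over all conventional dendritic cells Fabp5 was therefore only 1.84 times higher in the macrophages of Irg1+/+ and 0.927 times as high in those of Irg1-/-. Cd36 was at 426 and 296 CPM in cDC1 but at 61.8 and 41.1 CPM in cDC2, and at 354 and 453 CPM in nonclassical monocytes.

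Apoe, the lipoprotein carrier, was abundant in monocytes as well as macrophages. It was at 1131 (1110–1152) and 1518 (1490–1546) CPM in macrophages, 602 (566–639) and 779 (744–815) CPM in classical monocytes and 773 and 1098 CPM in nonclassical ones. The ratio of macrophages to classical monocytes was 1.88 and 1.95, just under 2-fold in each library. Apoe was higher in the library labelled Irg1-/- in all these cells, and in lymphocytes too.

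The efflux transporter Abca1 was 6.22 and 4.99 times higher in macrophages than in classical monocytes, the largest ratio of the 10 in Irg1+/+. It was at 243 (233–253) and 216 (205–226) CPM in macrophages and 38.7 and 43.1 CPM in classical monocytes, the latter little above the 27.0 and 29.5 CPM of lymphocytes. B cells stood apart from T cells for Abca1, at 248 and 184 CPM from 38 and 32 UMIs, while T cells had 22.2 and 18.1 CPM. Lipa was at 420 (407–433) and 352 (339–366) CPM in macrophages and 146 and 115 CPM in classical monocytes, 2.88 and 3.07 times higher.

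Of the 3 glycoprotein, cytokine and lectin genes, Spp1 and Gpnmb were high in macrophages and also counted in some other gates, and Lgals3 was broad. Spp1 was at 1274 (1251–1296) and 464 (449–479) CPM in macrophages and 317 (291–345) and 118 (105–133) CPM in classical monocytes, a ratio of 4.01 and 3.93. Its UMIs were concentrated: the 5% of macrophages with most held 49.7% and 58.9% of them, and single cells had up to 274 and 188. NK cells held Spp1 at 544 and 154 CPM, of which 87.6% and 83.5% lay in the top 5% of NK cells (18 and 34 cells), where T cells had 110 and 73.3 CPM. In Irg1+/+ 1 NK cell had 231 of the 637 UMIs. These top cells were deeper than the other NK cells, with medians of 7056 and 5581 UMIs against 2671 and 2535. The 6 monocyte or macrophage markers, which the NK gate itself keeps low, summed to 646 and 675 CPM in them, 596 and 657 CPM in the other NK cells and 4816 and 4571 CPM in macrophages. Doublets were kept, and their part in the NK level was not tested. The lymphocyte level of Spp1 given above includes these NK cells. Neutrophils had 232 CPM (21 UMIs in 44 cells) and 846 CPM (247 UMIs in 149 cells).

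Gpnmb was at 492 (478–506) and 258 (246–269) CPM in macrophages and 131 (115–149) and 35.1 (28.0–43.5) CPM in classical monocytes, a ratio of 3.74 and 7.30, the second set by a monocyte level no higher than that of lymphocytes. Gpnmb is also a melanocyte gene. The 59 and 8 cells that passed the melanocyte gate in spite of the Cd45 sort had it at 4224 and 5684 CPM and held 33.1% and 18.4% of all its UMIs. Melanocyte markers (Pmel, Mlana, Dct, Tyrp1 and Tyr, all 5 with UMIs) summed to 176 and 81.6 CPM in macrophages and 162 and 38.6 CPM in lymphocytes, with Dct the most abundant. Scaled by these markers, RNA of melanoma cells would carry 34.1 and 19.9 CPM of Gpnmb into macrophages, 6.93% and 7.72% of what was measured there, and 33.0% and 25.1% of the Gpnmb in lymphocytes. Lgals3 was at 4653 (4611–4696) and 3380 (3339–3421) CPM in macrophages, 2011 and 1805 CPM in classical monocytes and 1459 and 1393 CPM in dendritic cells, and 97.9% and 96.5% of thinned macrophages had a UMI of it, against 95.7% and 94.6% of classical monocytes and 72.8% and 62.9% of lymphocytes.

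Set against all genes, 8 of the 10 were at least 2-fold higher in macrophages than in classical monocytes in both libraries, where 6.07% of the 10355 genes tested were. Apoe missed the limit in both and Lgals3 in Irg1-/- (2.31 and 1.87). The median log2 ratio of the members was 1.95 in each library, and that of all genes 0.13 and 0.16. Over conventional dendritic cells 9 of the 10 passed, all but Fabp5, where 9.45% of 10813 genes did. The folds ran from 3.19 and 2.43 for Lgals3 to 15.3 and 13.2 for Lpl. They were 15.1 and 10.4 for Abca1, 9.69 and 7.73 for Spp1 and 6.88 in both libraries for Trem2. The dendritic cell levels of Lpl, Abca1, Spp1 and Trem2 are read as background, so that their folds are not exact and their order is not read. Without the Lyve1 gate and that on C1q and MHC class II genes, the count over monocytes was 9, Lgals3 being the one added.

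**Figure D2:**
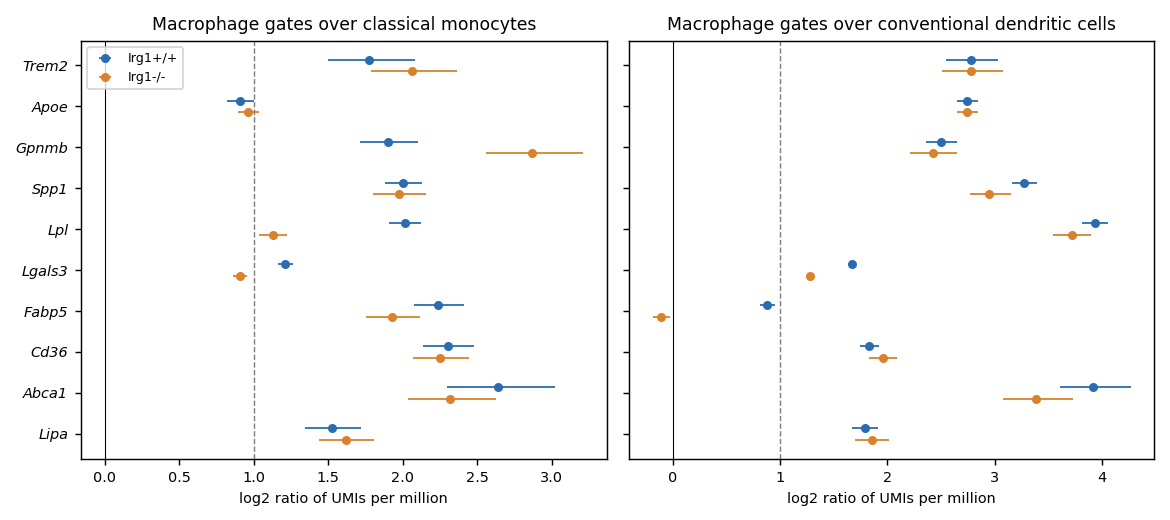
Log2 ratio of the level in the macrophage gates over classical monocytes (left) and over conventional dendritic cells (right) for the 10 genes, with 95% counting intervals; the dashed line marks 2-fold. Apoe lies under the line in the left panel in both libraries, and Fabp5 in the right one.

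The macrophage states did not hold the 10 genes alike. Gpnmb, Spp1, Lgals3 and Abca1 were at least 1.5-fold higher in the Vegfa gate than in the other macrophages in both libraries (4 of 10, where 6.29% of 10037 genes were). Trem2, Apoe and Lipa were so in the Mrc1 gate (3 of 10, 5.69%). Spp1 and Lpl were so in the Ccl24 gate (2 of 10, 1.91%). None passed in the gate on C1q and MHC class II genes (2.52% of genes), in the Lyve1 gate (3.11%) or in the Retnla gate (2.99%).

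In the Vegfa gate, Gpnmb was at 1036 and 685 CPM, a log2 ratio of 1.76 and 1.96 over the other macrophages. Abca1 stood there at 450 and 439 CPM (1.39 and 1.35), Spp1 at 1881 and 1007 CPM (0.82 and 1.49), and Lgals3 at 7204 and 6082 CPM (0.93 and 1.09). The same gate had the lowest level of both lipases among the 6 states in both libraries. Lpl was at 654 and 321 CPM, a log2 ratio of -1.69 and -1.67, and Lipa at 279 and 200 CPM, -0.75 and -0.93, its interval in Irg1+/+ overlapping that of the gate on C1q and MHC class II genes. The sterol exporter was thus high, and the enzymes that release fatty acids low, in the same state. Plin2, the lipid droplet coat protein, was at 1212 and 954 CPM there, against 794 and 561 in all macrophages.

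In the Mrc1 gate, whose markers also include C1q genes, Trem2 was at 348 and 347 CPM (log2 ratio 1.00 and 1.09), Apoe at 1804 and 2348 CPM (0.89 and 0.79) and Lipa at 612 and 582 CPM (0.70 and 0.92). Receptor, carrier and lysosomal lipase were highest there in both libraries, but of these 3 only Trem2 stayed so both with cycling cells left out and with stricter gates. Apoe in Irg1+/+ was highest in the gate on C1q and MHC class II genes with cycling cells left out or with stricter gates, and Lipa in Irg1-/- in the Retnla gate with cycling cells left out. In the 148 and 89 macrophages with no T, NK or B cell marker UMI, Apoe was highest in the Vegfa gate of Irg1+/+ and the Ccl24 gate of Irg1-/-, and Lipa in the Lyve1 gate of Irg1-/-. Trem2 was still highest in the Mrc1 gate, but from 5 and 6 UMIs in 17 and 8 cells. Apoe in that Ccl24 gate had 46 UMIs in 9 cells, and Lipa in that Lyve1 gate 8 UMIs in 14 cells. These counts are too small to rank the states. In Irg1+/+ the Trem2 interval overlapped that of the Lyve1 gate (315 CPM), and the Apoe interval that of the gate on C1q and MHC class II genes (1745 CPM). In Irg1-/- the intervals of Apoe and Lipa overlapped those of the Lyve1 gate and the Retnla gate, respectively. Mrc1 cells were the deepest of the states, with medians of 12368 and 10893 UMIs.

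The Ccl24 gate combined high Lpl with low Apoe. Lpl was at 3354 and 1675 CPM (log2 ratio 1.43 and 1.07) and Spp1 at 1750 and 752 CPM (0.64 and 0.84), while Apoe was at 336 and 659 CPM, -2.04 and -1.32, the lowest of all states in both libraries. Abca1 was at 72.6 and 118 CPM, -2.02 and -0.96. Gpnmb was at 221 and 43.0 CPM, the latter close to the 37.6 CPM of lymphocytes. Abca1 and Lpl, both tied to lipid traffic, thus took opposite ends of the order in the Vegfa and Ccl24 gates of Irg1+/+, while Spp1 was high in both gates.

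The gate on C1q and MHC class II genes was low for nearly all members, with a median log2 ratio of -1.21 and -1.22. Spp1 was at 334 and 153 CPM (-2.13 and -1.96), Cd36 at 300 and 169 CPM (-1.68 and -1.91) and Gpnmb at 134 and 100 CPM (-2.07 and -1.70). Apoe was the exception, at 1745 and 1345 CPM (0.79 and -0.24), in different directions in the libraries. The highest state was the same in both libraries for 7 of the 10 members, and for 5 with cycling cells left out. Those that did not were Lpl (Ccl24 and Retnla gate, 2002 CPM in the latter), Fabp5 (Lyve1 gate with 1450 CPM, and Vegfa gate with 740) and Cd36 (Vegfa gate with 1068 CPM, and Mrc1 gate with 767), whose highest intervals in each library overlapped that of the next state except for Lpl and for Fabp5 in Irg1+/+.

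**Figure D3:**
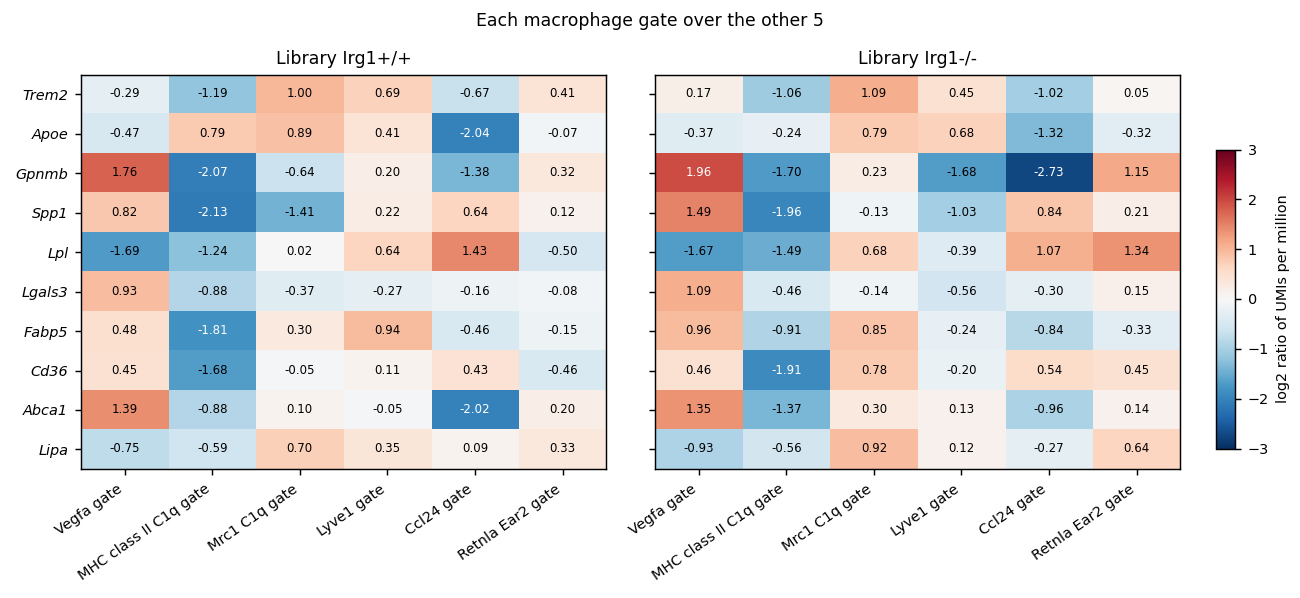
Log2 ratio of each macrophage gate over the other macrophages for the 10 genes in both libraries. Gpnmb and Abca1 are raised and Lpl and Lipa are low in the Vegfa gate in both, Trem2, Apoe and Lipa are raised in the Mrc1 gate, and most genes are low in the gate on C1q and MHC class II genes.

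Single macrophages held more of the 10 genes than other cells at equal depth. At 2000 UMIs per cell (126 and 82 shallower macrophages left out), 545 of 962 macrophages (56.7%, 53.5–59.8) had a UMI of 5 or more of the 10 in Irg1+/+ and 317 of 806 (39.3%, 35.9–42.8) in Irg1-/-. The mean was 4.91 and 4.20 genes. Classical monocytes reached 5 genes in 11.6% and 8.13% of cells, nonclassical ones in 17.9% and 15.7%, conventional dendritic cells in 4.38% and 1.85% and lymphocytes in 3.88% and 1.22%. By state the share ran from 81.1% and 63.3% in the Mrc1 gate and 65.2% and 49.2% in the Vegfa gate to 29.4% and 25.4% in the gate on C1q and MHC class II genes. Among the cells outside these states it was 55.5% and 28.0% in cycling cells and 38.4% and 23.0% in monocytes or macrophages without a state. Without thinning, 82.4% and 75.5% of macrophages had 5 or more.

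**Figure D4:**
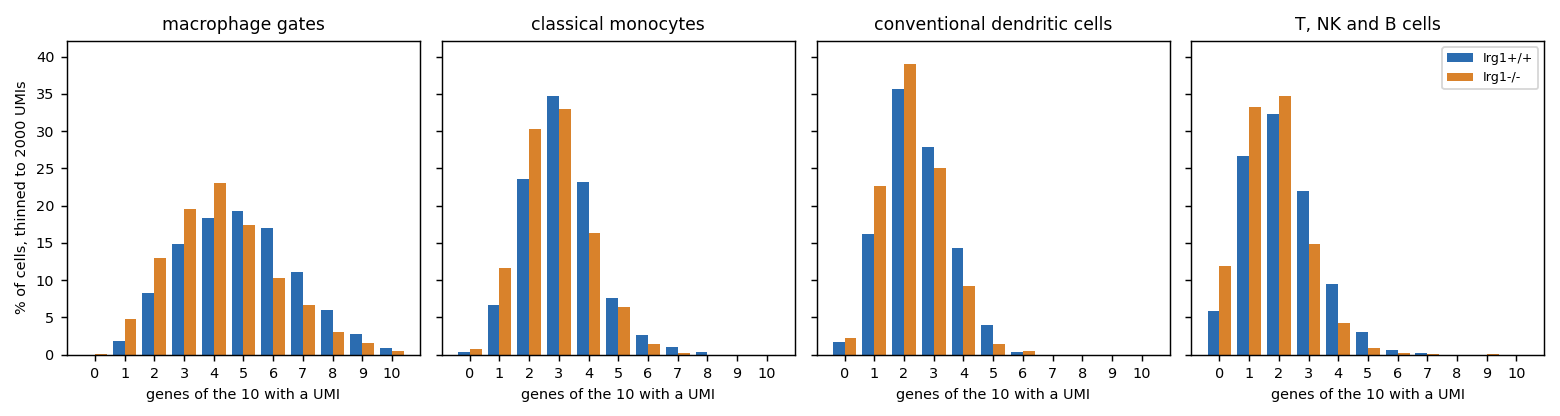
Share of cells by the number of the 10 genes with a UMI, after thinning each cell to 2000 UMIs, in macrophage gates, classical monocytes, conventional dendritic cells and lymphocytes. The macrophage distribution is the widest and lies to the right, with means of 4.91 and 4.20 genes.

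Pairs of members were found in the same macrophage somewhat more often than the product of their shares. The median ratio over the 45 pairs was 1.09 and 1.14, and it was over 1 for 39 and 40 of them; in classical monocytes the median was 1.01 and 1.02 (24 and 26 pairs), and in dendritic cells 1.02 and 1.00. Gpnmb and Abca1 were together in 12.6% and 7.44% of macrophages, 1.36 and 1.41 times the product. Gpnmb and Spp1 were in 21.6% and 8.19% (1.27 and 1.47), and Trem2 and Abca1 in 9.15% and 9.80% (1.31 and 1.42). Lpl and Abca1, which differed in the states above, were at 0.846 and 0.968 times the product. These ratios are small, cells of one library share its free RNA, and they are a description.

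Other genes of lipid handling followed in part. Of 86 genes in 9 lists, 78 were tested for macrophages over classical monocytes, and 17 were at least 2-fold higher in both libraries (6.07% of all genes) and 3 lower (1.89%). Among the liver X receptor genes 2 of 9 tested were higher: Nr1h3, which encodes the receptor LXRα, 4.17 and 3.52 times, and Pltp, a phospholipid transfer protein, 4.94 and 6.02 times. Among the genes of PPAR and fatty acid use 2 of 10 were, Pparg itself (4.14 and 4.32 times) and the fatty acid binding protein gene Fabp4 (6.32 and 4.87).

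The lysosomal list had 5 of 15 higher: Ctsd, Ctsb, Ctsl, Ctsk (16.7 and 7.25 times) and the proton pump subunit gene Atp6v0d2 (20.4 and 10.9). Genes that accompany this state in tissues had 5 of 10: Cd9 (3.26 and 2.60 times), Cd63 (5.77 and 4.68), Itgax, Pld3 and the elastase gene Mmp12 (13.3 and 13.2). Of 9 partners of osteopontin and galectin, Itga9 (10.4 and 7.51 times) and the efferocytosis receptor Mertk (9.61 and 3.70) were higher and Itga4 was lower. Of 6 droplet genes Hilpda, which is also a marker of the Vegfa gate, was higher and Dgat2 lower, and of 8 lipoprotein uptake genes none was higher.

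The lists for Trem2 signalling (7 genes) and MiT/TFE factors (4) had none. Tyrobp, the adaptor without which Trem2 does not signal, was at 1403 and 1537 CPM in macrophages and 2243 and 2096 CPM in classical monocytes, 0.625 and 0.733 times as high in the former. The median log2 ratio of the signalling list was -0.64 and -0.50. The receptor was thus higher in macrophages in both libraries and its shared adaptor lower.

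The 10 genes most like the members, by Pearson correlation with their mean profile over 19 gates in 2 libraries (38 points, which share libraries and free RNA), were Ccl7, Ccl2 and Ccl12 (r = 0.937, 0.936 and 0.933), Lgmn (0.926), Emp1, Lrp12, Lonrf3, Hmox1, Dab2 and Plin2 (0.903), out of 10148 genes ranked. Ccl2, Ccl7 and Ccl12 encode chemokines that draw Ccr2+ monocytes, Lgmn a lysosomal protease and Hmox1 heme oxygenase 1. Ccl2 was at 1894 and 1199 CPM in macrophages and 744 and 647 CPM in classical monocytes, and Lgmn at 1191 and 1089 CPM against 387 and 350. Since each member is part of that mean, its own correlation was taken with the mean of the other 9, and ran from 0.70 for Fabp5 to 0.96 for Trem2.

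Between the libraries, 5 of the 10 genes were at least 1.5-fold lower in the macrophages labelled Irg1-/-, where 5.97% of 11318 genes were, and none was higher (5.09%). The log2 ratios were -1.46 (interval -1.51 to -1.40) for Spp1, -0.93 for Gpnmb (-1.01 to -0.86) and for Lpl (-0.98 to -0.89), -0.90 for Fabp5 (-0.96 to -0.84) and -0.78 for Cd36 (-0.83 to -0.72). Lgals3 (-0.46), Lipa (-0.25), Abca1 (-0.17) and Trem2 (-0.10) were within 1.5-fold, and Apoe was at 0.42. The median was -0.62, and that of all genes -0.02. These counts depend on the gates whose cells differ: without the Lyve1 gate and that on C1q and MHC class II genes only 2 were lower, Spp1 (-1.08) and Fabp5 (-0.66), with Gpnmb at -0.53, Lpl at -0.57 and Cd36 at -0.49. Lpl also came under the 1.5-fold limit with cycling cells left out (-0.58) and in the 148 and 89 macrophages with no T, NK or B cell marker UMI (-0.39). In the latter Lgals3 (-0.63) and Lipa (-0.76) passed the limit instead, so that 6 members were lower.

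Other cell classes did not all move this way. In classical monocytes Gpnmb, Spp1, Fabp5 and Cd36 were at least 1.5-fold lower in Irg1-/- (4 of 10, 7.49% of genes), Gpnmb to a level read as background. In conventional dendritic cells Gpnmb, Spp1, Lpl and Cd36 were (4, 7.88%), but only Cd36 lay above the lymphocytes in both libraries by more than 1.5-fold, the other 3 being near or below them. In lymphocytes themselves the same 4 were lower (6.53%). Nonclassical monocytes had a median log2 ratio of 0.27, with Cd36 at 354 and 453 CPM and Fabp5 at 134 and 182 CPM, and with Spp1 at 173 and 167 CPM, near the 157 CPM of lymphocytes in Irg1+/+ and with 80.6% of its 165 UMIs in 9 cells of Irg1-/-. Spp1 in neutrophils was higher in Irg1-/-, at 232 and 846 CPM. Those neutrophil UMIs lay in few cells, 8 of 149 holding 68.0% of the 247 in Irg1-/- and 3 of 44 holding 57.1% of the 21 in Irg1+/+, and without the cell with most in each library the levels were 179 and 698 CPM. With the lymphocyte level of each library subtracted, the ratios in macrophages were -1.59 for Spp1, -1.001 for Fabp5, -0.96 for Lpl, -0.85 for Gpnmb and -0.79 for Cd36, and 5 members remained at least 1.5-fold lower. The melanocyte marker level also moved with the libraries, at 176 and 81.6 CPM in macrophages. In the 352 and 557 macrophages with no melanocyte UMI, Spp1 was at -1.50, Gpnmb at -0.73 and Lpl at -0.15. These cells are the shallower ones, more so in Irg1+/+. In the Mrc1 gate their medians were 1738 UMIs in place of 12368 in Irg1+/+ and 9728.5 in place of 10893 in Irg1-/-. Scaled by the melanocyte markers, RNA of melanoma cells would carry 0.0434% and 0.0232% of the Lpl in macrophages. Why the Lpl ratio moved was not tested.

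By state, Spp1 was lower in all 6 and at least 1.5-fold lower in 5, with the Mrc1 gate at -0.33. In the Vegfa gate 4 members were lower (8.14% of genes): Spp1 (-0.90), Gpnmb (-0.60), Lpl (-1.03) and Cd36 (-0.72). In the gate on C1q and MHC class II genes 3 were, Spp1, Lpl and Cd36 (6.51%), and in the Mrc1 gate none (9.58%), where Abca1 was at 256 CPM in both libraries. For Gpnmb in the Mrc1 gate this rests on 1 cell of Irg1-/-, which held 145 of its 358 UMIs there. Without the cell with most Gpnmb UMIs in each library the gate had 313 and 177 CPM, a log2 ratio of -0.82 in place of -0.21, so that 1 member was lower.

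In the Ccl24 gate Gpnmb (-2.34), Spp1, Lpl, Lgals3, Fabp5 and Cd36 were lower (6 of 10, 9.92%), and Apoe (0.97) and Abca1 (0.70) were higher (8.84%). In the Lyve1 gate the same 6 were lower (13.5%), with Gpnmb at -2.64 and Spp1 at -2.58, and Apoe (0.62) was higher (11.7%), but its cells differ as described. In the Retnla gate Spp1 (-1.38) and Fabp5 (-1.06) were lower (9.59%) and Lpl (0.67) higher (8.45%). There 1 cell of Irg1-/- held 188 Spp1 UMIs. Without the cell with most Spp1 UMIs in each library, its ratio was -2.06 (1217 and 291 CPM). Apoe was higher in 5 of the 6 states and Gpnmb lower in all 6, by 1.5-fold in 3. The count for Gpnmb was set by few cells: in the Retnla gate of Irg1-/- 5 cells held 86.7% of its 392 UMIs, with 133 in 1 cell. Without the cell with most in each library its ratio there was -0.68 in place of -0.25, and with the Mrc1 gate Gpnmb was then lower by 1.5-fold in 5 of the 6 states. In the Ccl24 gate Trem2 (-0.63) and Lipa (-0.65) then passed too, which made 8 members lower.

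**Figure D5:**
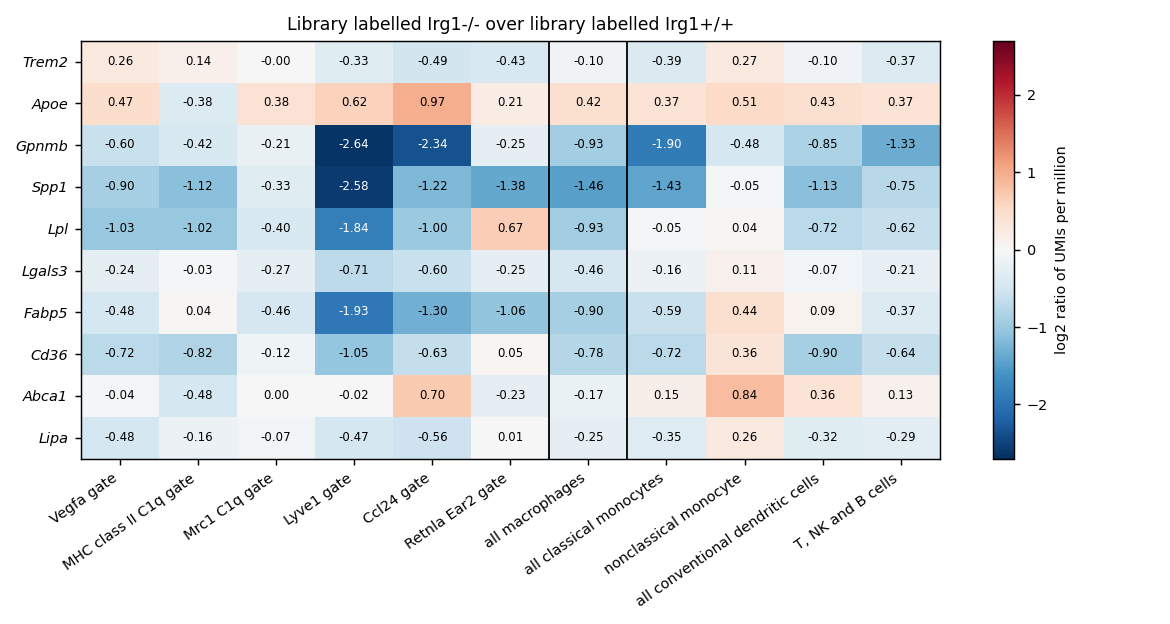
Log2 ratio of the library labelled Irg1-/- over Irg1+/+ for the 10 genes in each macrophage gate and in the grouped cell classes. Spp1 lies below 0 in all 6 macrophage gates, the Mrc1 gate shows no gene past 1.5-fold with all cells counted, and Lpl is at -1.84 in the Lyve1 gate and 0.67 in the Retnla gate.

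Of the 82 listed genes tested between the libraries in macrophages, 11 were at least 1.5-fold lower in Irg1-/- and 3 higher, where 5.97% and 5.09% of all genes were. Lower were Mmp12 (log2 ratio -1.63), Fabp4 (-1.78), Atp6v0d2 (-1.50), Cd9 (-0.98), Ctsk (-0.94), Cd63 (-0.76), Hilpda (-0.60) and Olr1 (-0.59), and, on few UMIs, Ppargc1a, Mgll and Fitm2. The mix of states differed as well, with 364 of 1088 and 199 of 888 macrophages in the Vegfa gate. Hilpda was at 1278 and 1411 CPM within that gate. It is one of the markers that select these cells, so its level there is partly set by the gate and is not compared. Within the same gate Mmp12 was lower, at 2038 and 1022 CPM, as were Atp6v0d2 (205 and 84.4) and Fabp4 (63.2 and 30.3). Also lower there were Cd9 (471 and 344 CPM), Ctsk (86.0 and 47.5), Cd63 (542 and 323) and Olr1 (26.4 and 10.7). Mmp12 was at 865 and 279 CPM in macrophages and Atp6v0d2 at 135 and 47.8 CPM. Higher were Pltp (0.88), Lipe (0.77) and, on 33 UMIs, Marco. Nr1h3 (0.39) and Pparg (0.04), which encode nuclear receptors, were within 1.5-fold. The activity of these receptors was not measured.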

How the data were processed

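Gene-by-cell tables of raw UMI counts were deposited by the authors, who trimmed reads with fastp, listed barcodes with UMI-tools and aligned with STAR; the labels name CASAVA 1.8, UMI-tools, Seurat and GRCm38. No normalization was applied to these counts. Cells with over 200 genes and mitochondrial genes under 10% of UMIs were kept. Members and lists were chosen with earlier results of these data known, and named genes were the 10 members, listed genes past the fold and the 10 most like the mean profile.

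Each cell took the class whose markers, scaled to the 25 cells with most, scored highest (at least 0.25, leading the next by 0.1), and monocytes or macrophages took a state likewise (0.5 and 0.25). This scaled score replaced the planned z score, whose classes failed their marker check, and the limits were set after seeing the data. Ero1a is listed as Ero1l. Some listed genes are not reported here. UMIs were summed per gate and library and scaled to 1000000 UMIs of the gate's total (CPM). Log2 ratios used a pseudocount of 0.5 UMIs and genes with at least 20 UMIs. The pipeline was tested on simulated data. Alternatives changed filters, gates, scaling, thinning, pseudocount and free RNA. Python 3.11.15, scipy 1.17.1 and scanpy 1.11.5 (doublet scores) were used, and edgeR 4.0.16 under R 4.3.3 for TMM factors only. Median depth per cell was 6815.5 and 6782 UMIs in macrophages, 5363 and 5292 in classical monocytes, 6768 and 6377 in conventional dendritic cells and 3381.5 and 2743 in lymphocytes.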

Additional observations from a re-analysis of the deposited data

Results flagged for a closer look

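Lpl moved in opposite directions between the libraries in 2 macrophage gates. Its log2 ratio of Irg1-/- over Irg1+/+ was -1.84 in the Lyve1 gate (2589 and 721 CPM) and 0.67 in the Retnla gate (1256 and 2002 CPM). With 1 library per genotype the difference was not tested. The Lyve1 gate held 18 Lyve1 UMIs in Irg1+/+ and 210 in Irg1-/-, and the Retnla gate of Irg1-/- was led by Car4 and Mucl1, so that the cells compared differ, and their part in the result was not tested.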

How the results depend on the processing

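The limits are those of 2 libraries: intervals cover counting error only, free RNA and melanoma RNA differed between the libraries, and many cells lay near the limits of the gates. No paired analysis was possible because each genotype has 1 library. The counts of members over monocytes (8) and dendritic cells (9) stayed within 1.5 times under every alternative run for them. Without the 5% of cells with the highest doublet scores they were unchanged, as were the 7 members with 1 highest state and the 5 lower in macrophages. The count of members with the same highest state in both libraries (7) was 5 with cycling cells left out, 6 with stricter gates or TMM scaling and 8 with the mean of each cell's CPM. Spp1 left the Vegfa gate in 1 library for the Ccl24 gate with cycling cells left out or stricter gates, and for the Lyve1 gate in cells with no melanocyte UMI. In cells with no melanocyte marker UMI (352 and 557 macrophages), 1 member in place of 0 was at least 1.5-fold higher in Irg1-/-, Lipa at 0.62, and 51.0% of Irg1+/+ macrophages had 5 or more members in place of 56.7%. There the log2 library ratio of Lpl in the Ccl24 gate turned from -1.002 to 0.12, and that of Fabp5 in the Retnla gate from -1.06 to 0.45. The Lpl value rests on 629 and 1107 UMIs in 71 and 76 cells, and that of Fabp5 on 20 and 138 UMIs in 24 and 64 cells. Median depth in this Retnla gate was 2903.5 UMIs in place of 6549 in Irg1+/+ and 5352.5 in place of 6720 in Irg1-/-. At 1000 UMIs per cell the share with 5 or more members was 30.9% and 16.98%, and without thinning 82.4% and 75.5%, as fewer or more UMIs per cell make it.

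The following alternatives were chosen after seeing the data. In cells with no T, NK or B cell marker UMI (148 and 89 macrophages) the share was 52.2% and 34.8%, 5 members had the same highest state in both libraries, Abca1 in Irg1+/+ moved to the Mrc1 gate, and library ratios reversed for Lpl in the Lyve1 gate (0.10, from 45 and 40 UMIs in 13 and 14 cells), Cd36 in the gate on C1q and MHC class II genes (0.14, 27 and 20 UMIs in 31 and 17 cells) and Fabp5 in the Retnla gate. The last was 3.05 from 0 and 7 UMIs in 10 and 16 cells, a value set by the pseudocount. Cells without such UMIs are the shallow ones, with medians of 1312 and 888.5 UMIs in the Retnla gate in place of 6549 and 6720. The Mrc1 gate kept 17 and 8 such cells, with 8 and 6 Abca1 UMIs, too few to rank the states. Without the Lyve1 gate and that on C1q and MHC class II genes, 2 members in place of 5 were at least 1.5-fold lower in Irg1-/- macrophages. With the 6 states weighted equally or cycling cells left out 4 were, and 5 with the lymphocyte level subtracted or without the cell with most UMIs of the member in each library. The remaining library counts in macrophages, under the other alternatives run, stayed within 1.5 times of 5.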
